A study of Homo sapiens with 6 samples.

Results

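Homologous recombination, the Fanconi anaemia pathway and the ATM and ATR checkpoint were followed through 41 listed genes, matched by symbol to the deposited gene table, and 40 of them had a row among its 58219 genes. MRE11A was not found under that symbol. The same gene stood there as MRE11, a synonym in RefSeq, and is given apart from the 40. The cells were IMR90, a line of normal diploid human lung fibroblasts, expressing ER-RAS, an oncogenic RAS carrying G12V fused to a hormone-binding domain of the oestrogen receptor that 4-hydroxytamoxifen (4OHT) switches on. All 6 libraries came from ER-RAS cells given 100 nM 4OHT, 3 of them for 30 h (called uncommitted controls in the labels) and 3 for 72 h (called committed), with the letters A, B and C in each group. The sample titles give 1.5 and 3 days for these times. No library without ER-RAS or without 4OHT was among them, so that commitment, time under RAS and time in culture cannot be told apart, and the promoter driving the construct is not named in the labels.

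Homologous recombination repairs a broken chromosome by copying the sister chromatid, and so works mainly in S and G2 phase. Broken ends are trimmed to single strands, BRCA1, PALB2 and BRCA2 hand those strands to the recombinase, paralogs and motor proteins help it search and exchange, and helicase complexes take the joined molecules apart. The Fanconi pathway removes crosslinks between DNA strands: a core complex attaches ubiquitin to the pair FANCD2 and FANCI. ATM and ATR are the kinases that sense breaks and stalled forks and signal through CHEK2 and CHEK1, and in fibroblasts with an activated RAS oncogene this signalling is a known part of entry into senescence.

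Between 30 h and 72 h most of these transcripts became less abundant. Of the 40 genes, 39 passed the filter on low values. By limma with Benjamini-Hochberg adjustment over all 13315 genes tested, 28 of the 39 fell, against 25.0% of all tested genes, 5 rose, against 23.6%, and 6 did not pass. The median log2 fold change was -0.63 for the 39 genes and 0.01 for all tested genes. At least 2-fold lower were 8 of them, compared with 6.70% of all tested genes, and 0 were at least 2-fold higher. The 3 values at 72 h all lay below the 3 at 30 h for 30 of the 40 genes and all above for 5, where 29.9% and 29.3% of all tested genes did so. The 5 that rose were ATM, ATR, TP53BP1, NBN and PALB2, by at most 1.36-fold. Leaving out letter B at 30 h or letter A at 72 h left 3 rises in place of 5.

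**Figure D1:**
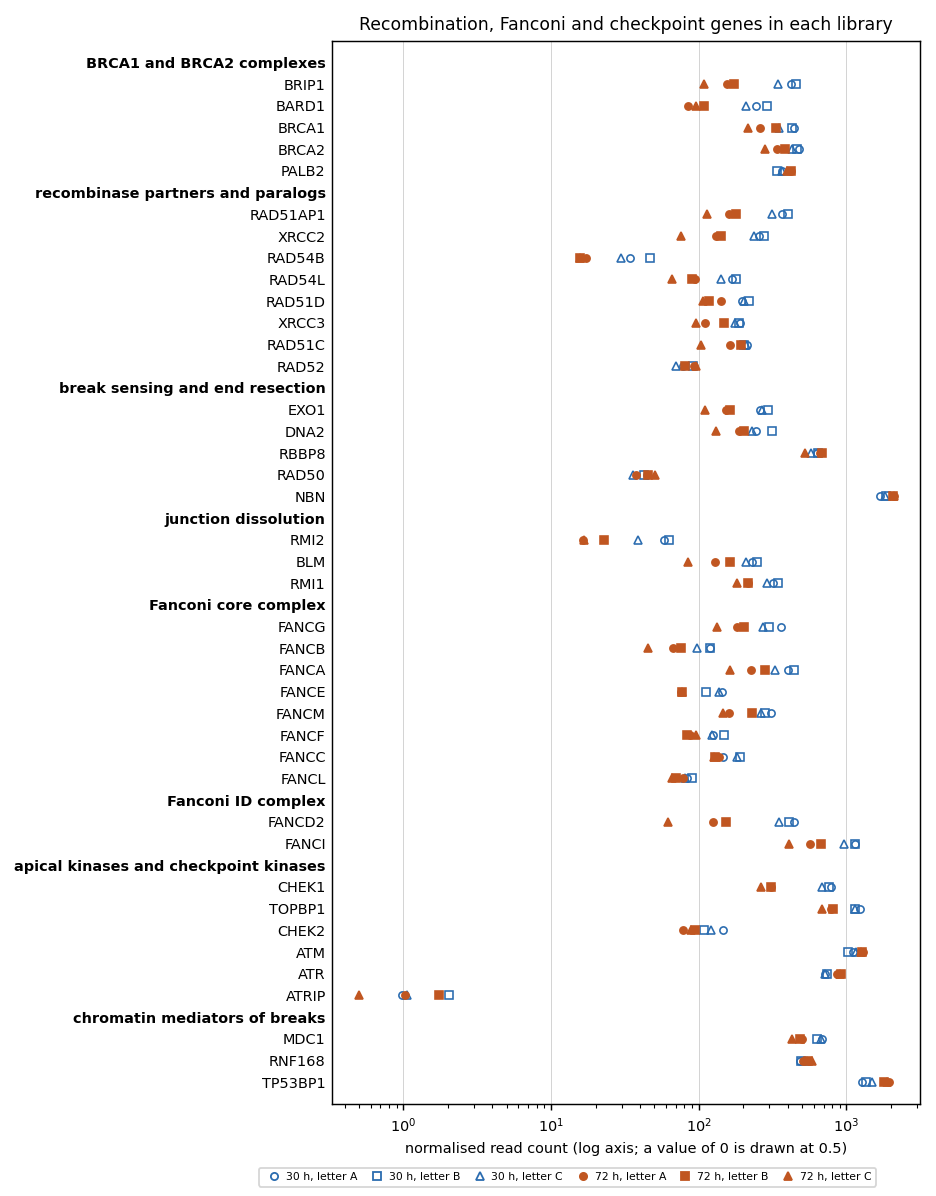
Normalised read count (log axis) of each of the 40 genes in the 6 libraries, grouped by role, with open blue symbols for 30 h, filled orange symbols for 72 h and a symbol shape for each letter. FANCD2, BRIP1, BARD1 and CHEK1 show a clear gap between groups, PALB2, ATM, ATR and TP53BP1 sit slightly to the right at 72 h, and ATRIP lies at 0 to 2.03.

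Depth was even, with 13221152 to 15703544 reads assigned to genes per library, and mitochondrial genes took 3.56% to 4.06% of reads at 30 h and 4.23% to 4.83% at 72 h. The first principal component held 81.3% of the variance and separated the times, and the second, with 7.0%, set both letter C libraries apart. Of the 9 fibroblast markers, all detected, 6 fell, against 25.0% of all tested genes, and the median log2 fold change was -1.74. The summed normalised count of the 9 went from 173181 to 183382 at 30 h down to 60859.6 to 69948.6 at 72 h. No epithelial, endothelial or immune marker passed the filter, with summed values of at most 10.2, 51.4 and 13.7. The proliferation marker MKI67 fell from 5669 ± 570.1 to 2156 ± 657 normalised counts, the cyclin CCNA2 from 1306 ± 163 to 505 ± 137, and HRAS, a RAS gene that the labels neither name nor exclude as the one in the construct, from 37555 ± 416 to 27310.1 ± 2784 (mean ± SD, n = 3). In these bulk samples, fewer cells carrying a transcript and less of it per cell cannot be told apart.

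The letter C library at 72 h held the lowest 72 h value for 28 of the 40 genes and for 22 of the 28 that fell, against 39.1% of all tested genes and 52.6% of all that fell. It also had the lowest MKI67 value of its group, 1413 against 2394 and 2659 for letters A and B. Without both letter C libraries 27 genes fell and 5 rose. Values below are normalised read counts listed in the order of letters A, B and C, and any fold change is on the scale of log2(normalised count + 1).

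The promoters of FANCD2, BRIP1, BARD1 and CHEK1, the 4 genes with the largest falls among those with a promoter sequence, and of ATR and TP53BP1, the 2 with the largest rises, are shown first. RefSeq promoters (GRCh38.p14, 250 bases before to 50 after each start) were found for 35 of the 40 genes, in 48 windows, and not for DNA2, FANCI, NBN, RAD54B and RMI2. They were searched on both strands for E2F-type letters (GGCGGGAA, TTTGGCGC or TTTCGCGC), for the CHR letters TTTGAA and for the NF-Y letters CCAAT, and no match of one kind overlapped another in these windows. Capitals mark the matches, and ATTGG is CCAAT and TTCAAA is TTTGAA read on the other strand.
FANCD2 promoter, chr3:10026187-10026486, plus strand: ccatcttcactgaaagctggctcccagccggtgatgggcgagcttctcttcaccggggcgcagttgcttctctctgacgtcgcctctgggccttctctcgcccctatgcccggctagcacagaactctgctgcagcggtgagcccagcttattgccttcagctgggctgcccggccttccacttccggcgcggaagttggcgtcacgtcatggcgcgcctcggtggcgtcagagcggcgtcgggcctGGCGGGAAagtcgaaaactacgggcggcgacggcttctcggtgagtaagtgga
BRIP1 promoter, chr17:61863479-61863778, minus strand: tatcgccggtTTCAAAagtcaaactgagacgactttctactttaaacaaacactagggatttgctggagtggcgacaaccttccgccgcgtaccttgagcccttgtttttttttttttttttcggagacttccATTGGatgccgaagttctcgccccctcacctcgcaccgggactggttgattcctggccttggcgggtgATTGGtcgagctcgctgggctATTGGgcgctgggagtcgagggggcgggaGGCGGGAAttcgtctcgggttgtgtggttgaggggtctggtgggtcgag
BARD1 promoter, chr2:214809634-214809933, minus strand: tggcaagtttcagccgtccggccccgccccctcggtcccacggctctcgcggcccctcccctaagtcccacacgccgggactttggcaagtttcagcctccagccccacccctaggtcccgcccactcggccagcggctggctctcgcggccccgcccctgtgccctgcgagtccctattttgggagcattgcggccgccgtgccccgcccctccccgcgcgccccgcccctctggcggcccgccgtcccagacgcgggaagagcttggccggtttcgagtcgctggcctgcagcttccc
CHEK1 promoter, chr11:125626106-125626405, plus strand: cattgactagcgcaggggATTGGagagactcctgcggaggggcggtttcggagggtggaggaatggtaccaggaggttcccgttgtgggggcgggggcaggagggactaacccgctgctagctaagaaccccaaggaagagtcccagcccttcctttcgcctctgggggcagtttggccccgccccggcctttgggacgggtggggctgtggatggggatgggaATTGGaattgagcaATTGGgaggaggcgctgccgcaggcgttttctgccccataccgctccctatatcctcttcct
ATR promoter, chr3:142578684-142578983, minus strand: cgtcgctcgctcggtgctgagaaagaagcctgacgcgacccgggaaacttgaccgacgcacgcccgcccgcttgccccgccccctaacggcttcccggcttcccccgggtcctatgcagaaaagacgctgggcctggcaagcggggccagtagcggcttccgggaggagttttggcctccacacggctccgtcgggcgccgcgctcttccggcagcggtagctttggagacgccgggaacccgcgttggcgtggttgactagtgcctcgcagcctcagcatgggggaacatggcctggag
TP53BP1 promoter, chr15:43510591-43510890, minus strand: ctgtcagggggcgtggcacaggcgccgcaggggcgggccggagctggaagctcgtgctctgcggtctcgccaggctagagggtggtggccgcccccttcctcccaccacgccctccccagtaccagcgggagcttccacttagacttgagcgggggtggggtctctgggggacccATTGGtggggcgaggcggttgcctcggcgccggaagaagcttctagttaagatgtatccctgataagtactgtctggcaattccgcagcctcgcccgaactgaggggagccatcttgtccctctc
FANCD2 and BRIP1, with the largest falls, carried GGCGGGAA across or just after the start site, BRIP1 beside 3 CCAAT matches. BARD1 had none of the searched letters. CHEK1, with a log2 fold change of -1.34, had CCAAT matches and no E2F-type letters in its 3 windows. ATR too had none of them, and TP53BP1 had 1 CCAAT match.

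E2F-type letters stood in a promoter window of 13 of the 35 genes (37.1%). By call, these were 11 of the 24 genes that fell and have a promoter (45.8%) and 0 of 4 that rose. Of the 6 that did not pass, 2 had them (33.3%). The share was 5.11% of all 27305 genes in the promoter table, 8.57% of tested genes, 10.0% of all genes that fell and 6.77% of all that rose. Seen by position, 9 of the 24 (37.5%) had a match starting within 25 bases of a start site, compared with 0.974% of all genes and 3.11% of all genes that fell; that distance was chosen after the positions were seen. Besides FANCD2 and BRIP1 these were the following, printed with 16 bases on either side of the match, which is in capitals.
RAD51AP1, chr12:4538852-4538891, plus strand: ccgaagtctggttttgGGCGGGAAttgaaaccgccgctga
XRCC2, chr7:152676098-152676137, minus strand: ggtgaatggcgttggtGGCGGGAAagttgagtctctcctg
EXO1, chr1:241848192-241848231, plus strand: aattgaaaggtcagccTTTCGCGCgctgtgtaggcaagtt
BLM, chr15:90717255-90717294, plus strand: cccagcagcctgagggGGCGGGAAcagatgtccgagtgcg
BLM, chr15:90717332-90717371, plus strand: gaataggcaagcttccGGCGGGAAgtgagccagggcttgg
XRCC3, chr14:103715431-103715470, minus strand: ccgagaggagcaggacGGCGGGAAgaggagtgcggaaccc
TOPBP1, chr3:133661925-133661964, minus strand: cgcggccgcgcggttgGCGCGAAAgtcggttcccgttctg
RMI1, chr9:83980768-83980807, plus strand: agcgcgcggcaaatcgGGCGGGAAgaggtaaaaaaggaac
The first of the BLM matches lies 75 bases before the start, and the letters of TOPBP1 are TTTCGCGC read on the other strand. RAD54L and FANCC held their matches farther from the start, as did FANCL and RAD52, which did not pass. Among genes that fell without these letters were BARD1, CHEK1, BRCA1 and BRCA2. CCAAT was found for 17 of the 35 genes (48.6%), 39.7% of all genes, 43.6% of tested genes and 47.0% of all that fell. TTTGAA was found for 4 of the 35 (11.4%), 18.2% of all genes, 13.9% of tested genes and 19.1% of all that fell. A match is a description of letters, and binding was not measured here.

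**Figure D2:**
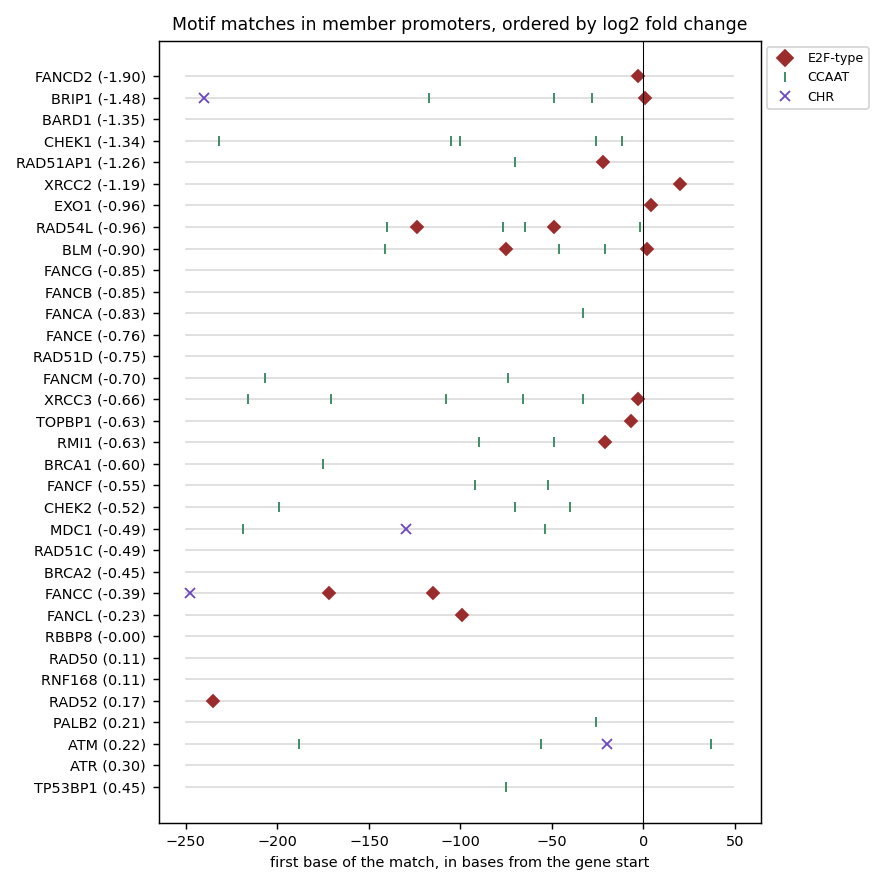
Distance in bases of each match from the gene start (vertical line) in the promoter windows of 34 tested genes, ordered from the largest fall at the top to the largest rise, with the log2 fold change in brackets. Matches from several windows of a gene share a line, each measured from its own start, and the E2F-type matches (diamonds) near the start lie in the upper and middle rows.

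Among the BRCA complexes, 4 of 5 genes fell and PALB2 rose (median log2 fold change -0.60). Each count by role stands beside the 25.0% of all tested genes that fell and the 23.6% that rose. BRIP1, a helicase that binds BRCA1, had 419, 454 and 342 at 30 h and 154, 174 and 109 at 72 h. BARD1, the partner with which BRCA1 forms a ubiquitin ligase, had 244, 292 and 209.9 at 30 h and 84.8, 109 and 95.5 at 72 h. In both, every 72 h library was below every 30 h library by a wide margin, and both fell, BRIP1 2.80-fold (log2 fold change -1.48, SE 0.181, adjusted p = 0.000303) and BARD1 2.55-fold (log2 fold change -1.35, SE 0.147, adjusted p = 6.61e-05). BRCA1 itself, which directs breaks to recombination, had 439.6, 428 and 351 at 30 h and 262, 336 and 214 at 72 h, so that letter B at 72 h came near letter C at 30 h. BRCA1 fell 1.52-fold (log2 fold change -0.60, SE 0.165, adjusted p = 0.0169), and its adjusted p was 0.0603 without letter A at 30 h, 0.0614 without letter B at 30 h and 0.0578 without letter A at 72 h.

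BRCA2, which loads the recombinase onto single-stranded DNA, fell 1.37-fold, from 454 ± 26.2 to 335 ± 53.4 (mean ± SD, n = 3, log2 fold change -0.45, SE 0.114, adjusted p = 0.0089). PALB2 joins BRCA1 to BRCA2 and was the exception, with 364, 340.3 and 364 at 30 h and 423, 419 and 393 at 72 h. Every 72 h value was above every 30 h value, by little, and PALB2 rose 1.16-fold (log2 fold change 0.21, SE 0.0740, adjusted p = 0.0397). That call did not hold in 4 of 6 fits without a library, with adjusted p = 0.0755 without letter A and 0.137 without letter B at 30 h, and 0.121 and 0.101 without letters A and B at 72 h. Without the filter on low values it was 0.12, with DESeq2 on recovered reads 0.154, and it was 0.158 in the authors' deposited table.

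Of the 8 partners and paralogs of the recombinase, 6 fell, 0 rose and 2 did not pass (median -0.86), where 25.0% of all tested genes fell and 23.6% rose. RAD51AP1, a protein that stimulates strand invasion and whose start-site letters are printed above, had 364, 401 and 311 at 30 h and 159, 179 and 114 at 72 h and fell 2.40-fold (log2 fold change -1.26, SE 0.169, adjusted p = 0.000396). The paralog XRCC2 had 256, 275 and 238 at 30 h and 131, 141 and 75.5 at 72 h. Its 2 values for letters A and B at 72 h were close and letter C was well below them, and XRCC2 fell 2.28-fold (log2 fold change -1.19, SE 0.224, adjusted p = 0.00324). Among the other paralogs, RAD51D had 195, 218 and 202 at 30 h and 141, 118 and 107 at 72 h and fell 1.69-fold, and XRCC3 fell from 184 ± 7.19 to 118 ± 27.2 (log2 fold change -0.75 and -0.66). XRCC3 shares 76.7% of its exonic bases with KLC1 on the opposite strand, a gene at 461 to 518 with a log2 fold change of -0.11, and the labels do not say whether counting used strand.

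The paralog RAD51C had 213, 203 and 208 at 30 h and 162, 192 and 103 at 72 h. All 3 values at 72 h were below those at 30 h but spread widely, and RAD51C did not pass (log2 fold change -0.49, 95% interval -0.97 to -0.02, limma adjusted p = 0.0809). Without letter B at 72 h it passed, with a log2 fold change of -0.68 and adjusted p = 0.0164, as it did without the filter on low values, at 0.00118. The motor proteins RAD54L and RAD54B, which remodel the joined DNA, fell 1.95-fold and 2.15-fold. RAD54L went from 163 ± 19.6 to 83.6 ± 15.4, and shares 25.1% of its exons with LRRC41 on the opposite strand (log2 fold change 0.20). RAD54B was scarce, at 34.1, 46.7 and 29.5 at 30 h and 17.4, 15.7 and 15.7 at 72 h, and 59.1% of its exons are also exons of FSBP on the same strand, so its value is uncertain. RAD52, an annealing protein, had 78.0, 91.4 and 70.7 at 30 h and 93.0, 80.2 and 96.5 at 72 h, with the groups interleaved and an interval of -0.17 to 0.51 (adjusted p = 0.384).

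Break sensing and resection had a median of -0.00: 2 of 5 genes fell, 1 rose and 2 did not pass. Of all tested genes, 25.0% fell and 23.6% rose. EXO1, the long-range nuclease, had 259, 296 and 268 at 30 h and 153, 162 and 110.1 at 72 h and fell 1.95-fold (log2 fold change -0.96, SE 0.146, adjusted p = 0.000504). DNA2, the other long-range nuclease, had 244, 313 and 231 at 30 h and 187, 202 and 131 at 72 h and fell 1.52-fold (adjusted p = 0.0222), but its adjusted p was 0.0749 without letter B at 30 h, the highest library, and 0.0505 with limma without trend and robust. RBBP8 (CtIP), which starts resection, had 637, 645 and 575 at 30 h and 658, 678 and 527 at 72 h. Its groups overlapped fully, with a log2 fold change of -0.00 and a 95% interval of -0.23 to 0.22 (adjusted p = 0.99).

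The 3 subunits of a single complex gave different values. NBN, its signalling subunit, was the most abundant of the 40 genes per length, at 289.7 normalised counts per kb of exon at 30 h and 337 at 72 h, and rose from 1783 ± 83.2 to 2076 ± 15.8 (log2 fold change 0.22, SE 0.0535, adjusted p = 0.00714). MRE11, its nuclease and the gene outside the symbol rule, had 511, 434 and 452 at 30 h and 296, 289 and 237 at 72 h, with no overlap, and fell 1.70-fold (log2 fold change -0.76, SE 0.106, adjusted p = 0.000285). RAD50, the subunit that tethers ends, had 44.8, 42.7 and 35.9 at 30 h and 37.8, 45.3 and 50.3 at 72 h and an interval of -0.31 to 0.53. RAD50 stood at 4.21 per kb at 30 h, and 79.7% of its exonic bases also belong to AC116366.3 on the same strand, which was at 0 to 1.05. The value of RAD50 is therefore uncertain.

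All 3 genes of junction dissolution fell (median -0.90), against 25.0% of all tested genes. The helicase BLM had 228, 248 and 208 at 30 h and 129, 162 and 85.0 at 72 h and fell 1.87-fold (log2 fold change -0.90, SE 0.217, adjusted p = 0.00958). RMI2, a small subunit of the BLM complex, had 58.5, 63.0 and 39.0 at 30 h and 16.4, 22.7 and 16.8 at 72 h, which are 16 to 62 reads per library, and fell 2.75-fold (log2 fold change -1.46, SE 0.245, adjusted p = 0.000917). RMI1, which holds that complex together, went from 316 ± 27.7 to 204 ± 19.6 and fell 1.55-fold.

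Of the 8 listed genes of the Fanconi core complex, 7 fell by 1.31-fold to 1.81-fold (median -0.73), against 25.0% of all tested genes. In all 8 the 3 values at 72 h lay below the 3 at 30 h, as for 29.9% of all tested genes. Not every subunit is among the 8. Of the further genes counted below, FAAP100 and FAAP20, named after their values were seen, did not pass (log2 fold change 0.23 and 0.11). FAAP24 fell with -1.36. FANCG, a scaffold of the complex, had 361, 299.7 and 271 at 30 h and 183, 202 and 133 at 72 h (log2 fold change -0.85, SE 0.167, adjusted p = 0.00289), and FANCB, which binds the ligase subunit, had 119.9, 119 and 97.0 at 30 h and 67.4, 75.9 and 45.1 at 72 h (log2 fold change -0.85, SE 0.200, adjusted p = 0.00609). FANCA went from 389.8 ± 58.6 to 222 ± 57.7 and shares 23.6% of its exons with ZNF276 on the opposite strand (log2 fold change 0.25). FANCE, which contacts FANCD2, went from 131 ± 17.1 to 76.3 ± 0.601, with 72 h values of 75.6, 76.7 and 76.6 that hardly differed. The translocase FANCM fell from 285 ± 21.9 to 179 ± 45.6 and the adaptor FANCF from 132 ± 13.5 to 89.4 ± 6.52.

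FANCC had the smallest fall of the core, 146, 189 and 180.3 at 30 h and 137, 129 and 126 at 72 h (log2 fold change -0.39, SE 0.124, adjusted p = 0.0272). Its adjusted p was 0.113 and 0.0658 without letters B and C at 30 h, and 0.0507, 0.0664 and 0.0589 without letters A, B and C at 72 h. With DESeq2 on recovered reads it was 0.0702, and it was 0.0721 in the authors' deposited table and, without both letter C libraries, 0.0685. FANCL, the ubiquitin ligase subunit, did not pass, with 82.9, 90.4 and 80.1 at 30 h and 78.7, 70.6 and 66.1 at 72 h and an interval of -0.55 to 0.08 (adjusted p = 0.197). FANCL shares 18.7% of its exons with VRK2 on the opposite strand, which stood at 554 to 743 with a log2 fold change of 0.29.

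The core's substrates both fell, FANCD2 more than any other of the 40 genes. FANCD2, which is loaded onto crosslinked DNA once ubiquitinated, had 439.6, 409 and 348 at 30 h and 125, 153 and 61.9 at 72 h. Letter C at 72 h was far below letters A and B, and the highest 72 h value was still below every 30 h value. FANCD2 fell 3.73-fold (log2 fold change -1.90, SE 0.338, adjusted p = 0.00517), and its log2 fold change lay between -2.16 and -1.52 when single libraries were left out. The value nearest zero, -1.52, is that without letter C at 72 h. Its partner FANCI had 1148, 1135 and 962 at 30 h and 569, 673 and 411 at 72 h and fell 1.99-fold (95% interval -1.44 to -0.55 on the log2 scale, adjusted p = 0.00492). At 30 h FANCI was the more abundant per length, at 139 normalised counts per kb against 47.6 for FANCD2.

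In the checkpoint, the upstream kinases and their downstream kinases changed in opposite directions. ATR, activated at stalled forks, had 715, 737 and 719 at 30 h and 868, 911 and 902 at 72 h and rose 1.23-fold (log2 fold change 0.30, SE 0.0566, adjusted p = 0.00165). CHEK1, the kinase that ATR activates, had 779.9, 767 and 687 at 30 h and 311, 309.5 and 262 at 72 h and fell 2.53-fold (log2 fold change -1.34, SE 0.0896, adjusted p = 3.51e-06). In both genes the 3 libraries of a time lay close together, apart from the other time. TOPBP1, the activator of ATR, had 1238, 1144 and 1147 at 30 h and 787, 807 and 684 at 72 h and fell 1.55-fold (log2 fold change -0.63, SE 0.0745, adjusted p = 0.000109).

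ATM, activated at breaks, had 1104, 1018 and 1161 at 30 h and 1299.8, 1277 and 1248 at 72 h and rose 1.17-fold (log2 fold change 0.22, SE 0.0621, adjusted p = 0.0142), and its adjusted p was 0.0675 without letter B at 30 h and 0.0569 without letter A at 72 h. CHEK2, the kinase that ATM activates, had 146, 109 and 121 at 30 h and 77.7, 94.2 and 89.2 at 72 h and fell 1.43-fold (log2 fold change -0.52, SE 0.149, adjusted p = 0.0163). That call too was lost without letter A at 30 h, its highest library (adjusted p = 0.075), and without letter A at 72 h (0.0653). ATRIP, the partner of ATR, had 0 to 2 reads in every library and could not be tested. It shares 27.9% of its exons with TREX1 on the same strand, which had 0 reads in every library, and no level of ATRIP is given.

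The 3 chromatin mediators went 3 ways. TP53BP1, which shields ends from resection and so opposes BRCA1, had 1279.9, 1362 and 1479.6 at 30 h and 1933, 1805 and 1871 at 72 h, with no overlap, and rose 1.36-fold (log2 fold change 0.45, SE 0.0641, adjusted p = 0.000362). On the opposite strand TUBGCP4 covers 28.7% of its exons, with 249 to 473 over the 6 libraries and a log2 fold change of -0.54, and its part in the value of TP53BP1 was not tested. MDC1, the scaffold that binds marked histones around a break, had 687, 636 and 669.7 at 30 h and 504, 485 and 428 at 72 h and fell 1.41-fold (log2 fold change -0.49, SE 0.0780, adjusted p = 0.000645). RNF168, the ubiquitin ligase that prepares chromatin for TP53BP1, went from 505 ± 29.7 to 546 ± 38.3, a difference that did not pass (interval -0.06 to 0.29, adjusted p = 0.257).

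**Figure D3:**
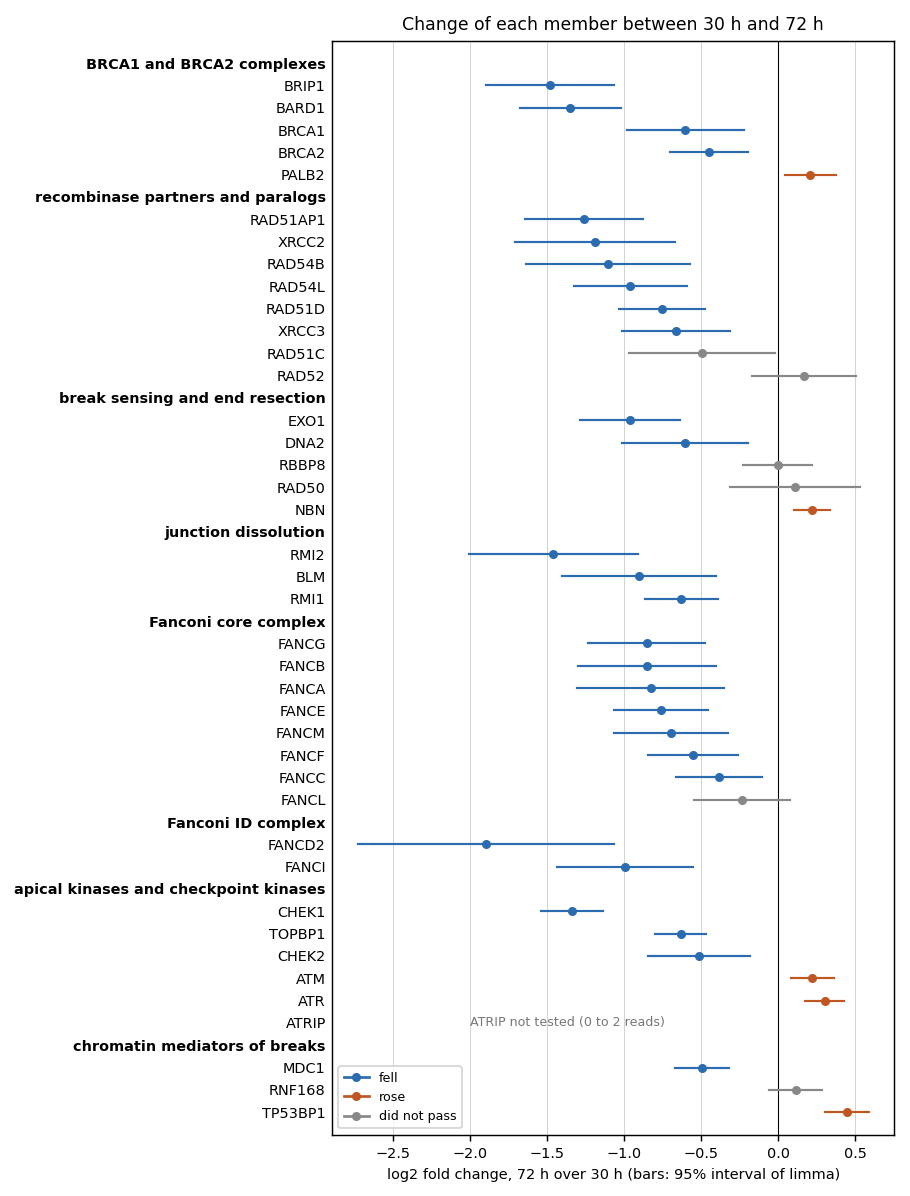
Log2 fold change of each gene from 30 h to 72 h with the 95% interval of limma (bars), grouped by role and coloured by call. Most points lie left of zero, FANCD2 farthest at -1.90, and the 5 rises lie between 0.21 and 0.45.

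Levels per length, in normalised counts per kb of exon, changed their order (means of 3 libraries, with no test between genes). Wherever a level per kb is given, the length is that of all annotated exons of the gene, merged over its isoforms. It is not the length of the transcript expressed here, so the order between genes may depend on the annotation. At 30 h NBN was followed by TOPBP1 at 161, RAD51AP1 at 140.2, FANCI at 139, RBBP8 at 122, CHEK1 at 114 and TP53BP1 at 106. At 72 h NBN was followed by TP53BP1 at 144, RBBP8 at 122, TOPBP1 at 104, RNF168 at 102 and PALB2 at 86.7. CHEK1, RAD51AP1 and FANCI had dropped to 44.9, 59.0 and 71.0. Of the detected genes RAD50 and RAD54B were lowest at both times.

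Because both partners of a pair are read from a single library, their ratio does not depend on its scaling. The 10 pairs were formed after the values had been seen, and their ratios are given as descriptions with no test. FANCD2 reads per FANCI read were 0.383, 0.361 and 0.362 at 30 h and 0.219, 0.227 and 0.151 at 72 h. BARD1 reads per BRCA1 read were 0.554, 0.682 and 0.598 at 30 h and 0.324, 0.325 and 0.446 at 72 h. In both pairs the groups did not overlap, and the partner named first, which had fewer reads at 30 h too, had fewer still relative to the other at 72 h.

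Of the 10, the ratio of CHEK1 reads to ATR reads moved most, with 1.09, 1.04 and 0.955 at 30 h and 0.358, 0.340 and 0.291 at 72 h. These reads are not scaled to length: per kb of exon, CHEK1 stood at 114 and ATR at 57.9 normalised counts at 30 h, and at 72 h CHEK1 at 44.9 and ATR at 71.5, the reverse order. CHEK2 to ATM went from 0.115 ± 0.0155 to 0.0683 ± 0.00749 (mean ± SD, n = 3) and BRIP1 to BRCA1 from 0.996 ± 0.0577 to 0.540 ± 0.0437. BRCA1 to TP53BP1, transcripts of proteins that compete over the choice of repair route, went from 0.298 ± 0.0548 to 0.145 ± 0.0368. PALB2 to BRCA2 was the pair that went up, from 0.785 ± 0.0602 to 1.25 ± 0.162. EXO1 to RBBP8 went from 0.444 ± 0.0319 to 0.227 ± 0.0158 and RAD51AP1 to RAD52 from 4.48 ± 0.154 to 1.71 ± 0.522. The ratio of RMI2 to BLM overlapped between the groups, at 0.256, 0.254 and 0.188 at 30 h and 0.127, 0.140 and 0.198 at 72 h.

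**Figure D4:**
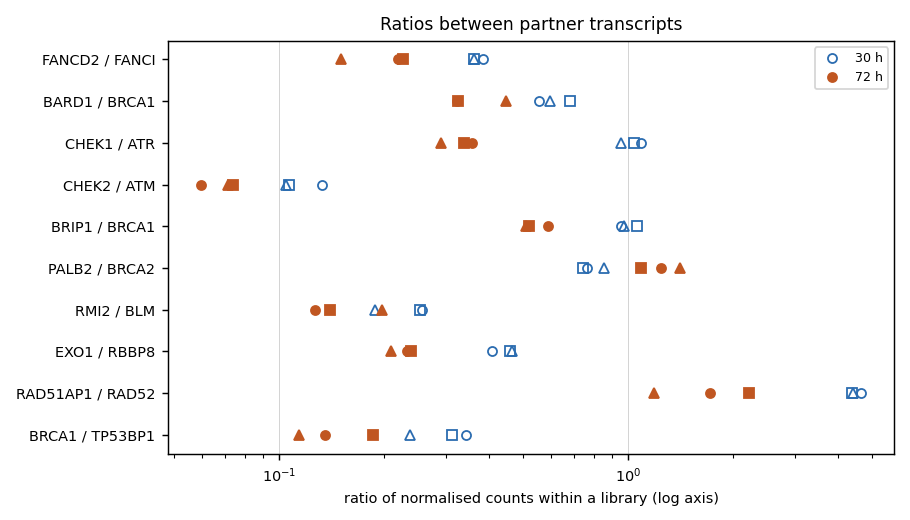
Ratio of the reads of 2 partner transcripts within a library (log axis), open blue for 30 h and filled orange for 72 h, with symbol shapes for the letters as in the plot of normalised counts. PALB2 to BRCA2 is the pair whose ratio is higher at 72 h, and RMI2 to BLM is the pair whose groups overlap. The pairs were formed after the values had been seen, so the number of pairs with groups apart is not a result.

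Many of these genes lie head to head with another gene, and these neighbours were read from the same fit. The start was taken as the outermost annotated edge of a gene, which need not be the start used in these cells. Within 1000 bases of it on the opposite strand, NBR1 lay 236 bases from the BRCA1 edge. NBR1 rose with a log2 fold change of 0.20 (adjusted p = 0.0179) while BRCA1 fell. That edge is at chr17:43170245, and another RefSeq promoter window of BRCA1 lies far from it, at chr17:43125315-43125614. Which BRCA1 start was used was not tested. DCTN5, 82 bases from PALB2, fell with -0.19 (0.0138) while PALB2 rose. MAP1A, 230 bases from TP53BP1, fell with -0.69 (9.94e-06) while TP53BP1 rose. DCTN5 and MAP1A thus went in the opposite direction to the gene beside them. NBR1 did so too, but its pairing with BRCA1 holds for that outermost edge only.

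Other neighbours fell with the repair gene. C12orf4 beside RAD51AP1 had a log2 fold change of -0.57, FKBP3 beside FANCM -0.53, ZFYVE21 beside XRCC3 -0.31, MOSPD2 beside FANCB -0.21 and ANKRD49 beside MRE11 -0.50, with adjusted p from 0.000196 to 0.0456. Each of those falls was smaller than that of the repair gene. CIDECP, a pseudogene whose start is 49 bases from that of FANCD2, did not pass, with -0.27 (adjusted p = 0.183), nor did HNRNPK beside RMI1 (-0.13), ERC1 beside RAD52 (-0.09), NPAT beside ATM (-0.09) or HSCB beside CHEK2 (0.05).

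A further 65 genes of the same pathways were counted in the same way. There were 26 falls and 6 rises among 64 tested, 32 did not pass, and the median log2 fold change was -0.19. The falls numbered 18 to 27 when single libraries were left out. With DESeq2 on recovered reads, and in the authors' deposited table, they numbered 22. Of all tested genes, 25.0% fell and 23.6% rose. The largest changes were those of EME1, a subunit of a junction-cutting nuclease, from 122 ± 12.6 to 43.0 ± 8.98, CDC25C, the phosphatase that starts mitosis and a target of CHEK1, from 186 ± 17.6 to 72.8 ± 38.8, FAAP24, a partner of FANCM, from 57.9 ± 6.60 to 22.5 ± 6.37, and PKMYT1, a kinase that restrains CDK1, from 225 ± 9.98 to 105 ± 25.9. Their log2 fold changes were -1.50, -1.47, -1.36 and -1.12. Named after their values were seen, UBE2T, which works with FANCL, fell with -0.90, USP1, which removes ubiquitin from FANCD2, with -0.76, and CLSPN, the adaptor between ATR and CHEK1, with -0.84. The 6 that rose were CENPS (0.67), REV1 (0.30), EME2 (0.29), FAM175A (0.28), ERCC4 (0.26) and FAM35A (0.22), also named after the fact, and without letter B at 30 h or letter A at 72 h 1 rise was left. RAD17, RAD9A, RAD1 and HUS1, which form and load the checkpoint clamp, were among those that did not pass.

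End joining, which seals breaks without a template, had 3 falls, 3 rises and 7 genes that did not pass of 13 tested (median -0.05), which is near the 25.0% and 23.6% of all tested genes. XRCC4, the ligase cofactor, fell from 205 ± 26.8 to 89.1 ± 14.8 and POLQ, the polymerase of a microhomology route, from 356 ± 25.9 to 168 ± 61.6 (log2 fold change -1.20 and -1.15). Named after their values were seen, the nuclease gene DCLRE1C fell with -0.66, and POLM, a polymerase, and LIG4, the ligase, rose with 0.55 and 0.22. One rise was left in each of 4 fits without a library: letter A or B at 30 h, letter A or B at 72 h.

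Genes of the cell cycle fell over the same interval. Of 33 S phase genes, none among the 40, 29 fell (median -0.86), and of 50 genes of G2 and M phase 44 fell and 1 rose (median -1.25). Without single libraries, 24 to 29 S phase genes and 34 to 46 genes of G2 and M phase fell. Without the filter on low values, 31 genes of G2 and M phase fell. The shares of all tested genes were 25.0% for falls and 23.6% for rises. Whether the share of cycling cells played a part in the falls of repair genes was not tested.

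**Figure D5:**
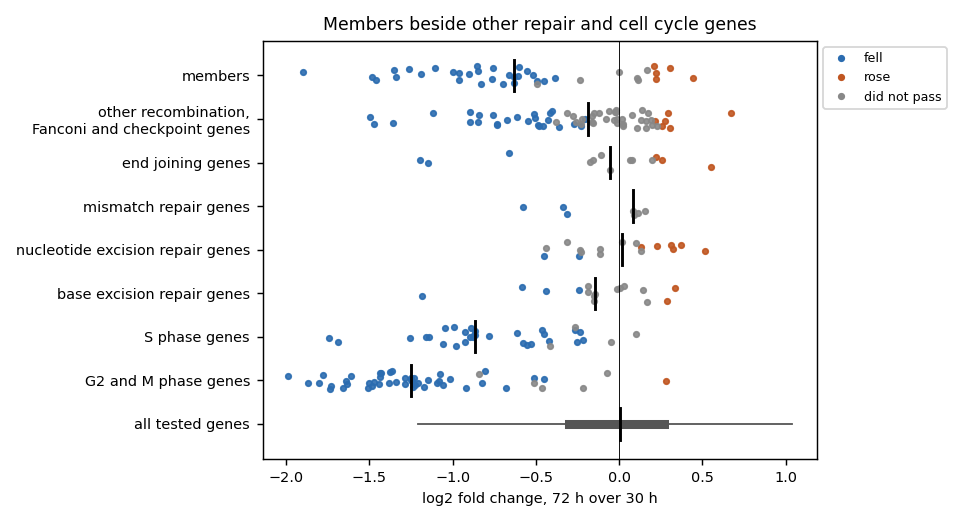
Log2 fold change of each tested gene in the 40 genes (members) and in 7 other lists, coloured by call, with the median as a vertical bar, and for all tested genes the 5th to 95th percentile (line), the quartiles (box) and the median. The median is -0.63 for the 40 genes, between the -0.19 of further genes of these pathways and the -1.25 of G2 and M phase genes, and the other repair lists lie near zero.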

How the data were processed

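RNA sequencing of 6 libraries (KAPA mRNAseq Hyperprep kit, per the labels' protocols) was analysed from the authors' deposited gene table. Per the submitters' processing notes, Trimmomatic 0.35, STAR 2.5.1b and DESeq2 1.18.1 were used, with the GRCh38 build; for the counter, the annotation and the strand setting, no name or version is given there or in the labels. The deposited columns per library hold a signal in the form of normalised read counts: 100% of the values were whole multiples (within 0.01 reads) of 1 library factor, 0.948 to 1.15. The authors' table also holds log2 fold changes with their standard errors, a test score equal to their ratio in 100% of rows, and p-values with adjusted p-values, per the file headers. Of 58219 genes, 31393 had no reads.

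Here, values of at least 10 in at least 3 libraries were kept, and log2(value + 1) was tested with limma 3.58.1 (R 4.3.3, trend and robust) and Benjamini-Hochberg adjustment at 0.05. No column of another sample was found in the table. Alternatives were pseudocounts of 0.5 and 5, no filter, a filter at 50, quantile normalisation, limma without trend and robust, a replicate block, edgeR 4.0.16 and DESeq2 1.42.0 on recovered whole reads, the authors' own results, leaving out each library, and, chosen after seeing the data, leaving out letter C. On recovered reads edgeR called 3340 genes lower and 3143 higher, against 3328 and 3144. Exon overlap, lengths and neighbours came from GENCODE 29, which holds 34 of the 40 genes at identical coordinates to those of the deposited table, and promoters from RefSeq.

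Named were all listed genes, up to 4 called genes per repair list with a log2 fold change of at least 1 in size, neighbours sharing a start region, MKI67, CCNA2 and HRAS. Values of some single genes of the repair lists are not reported here. The members and lists were chosen with earlier results of these data known. Whether the 3 libraries of a group are separate cultures is not given, and p-values then measure only the spread between these samples. Within a group, libraries differed by more than sampling noise (chi-square per degree of freedom 3.34 to 16.3).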

Additional observations from a re-analysis of the deposited data

How the results depend on the processing

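Of the 39 tested genes, 32 kept their call in every one of the 17 alternatives in which they were tested, among them 24 of the 28 that fell (36 were tested with the filter at 50, which left out RAD54B, RAD50 and RMI2), and of the called genes 0 changed direction. The falls numbered 25 to 28 and the rises 3 to 5 when single libraries were left out, and the median log2 fold change lay between -0.73 and -0.56. The calls that changed (BRCA1, PALB2, RAD51C, DNA2, FANCC, ATM and CHEK2) are given with the genes. The causes were not tested.

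With the replicate block, 29 of these genes fell and 5 rose, RAD51C being the one gained (adjusted p = 0.0474), and 3452 of all tested genes fell and 3271 rose. Deviations from the group means correlated 0.00696, 0.172 and 0.185 for letters A, B and C. Letters B and C at 30 h each correlated best with their own letter at 72 h, and letter A at 30 h with letter B at 72 h (0.0956). The main fit left the letters out, and whether libraries with the same letter share an origin was not tested.

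Of the further pathway genes, 10 rose with quantile normalisation, 3 with limma without trend and robust, 2 with DESeq2 and 2 in the authors' deposited table, and 1 to 6 without single libraries. Of end joining genes, 1 rose with limma without trend and robust, 1 with DESeq2 and 1 in the authors' table, and 1 to 3 without single libraries. Of mismatch repair genes, 1 rose with quantile normalisation and 1 without letter C, against 0. Of nucleotide excision repair genes, 3 rose in the authors' table and 3 to 5 without single libraries. Of base excision repair genes, 2 fell with DESeq2 and 2 in the authors' table, and without single libraries 2 to 4 fell and 1 to 2 rose.

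RAD54B had 15 to 46 reads per library, RAD50 34 to 52, RMI2 16 to 62 and ATRIP 0 to 2, and this depth limits the precision of their values.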

Other observations

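Repair routes that work outside recombination had medians nearer zero. Of 17 tested genes of nucleotide excision repair, which removes bulky lesions, 2 fell and 6 rose (median log2 fold change 0.02), where 25.0% of all tested genes fell and 23.6% rose. ERCC2, a helicase of the transcription factor TFIIH, fell from 668 ± 82.9 to 487 ± 54.4 and RAD23B from 4061 ± 44.3 to 3438 ± 91.4 (mean ± SD, n = 3), while UVSSA rose from 170.4 ± 23.5 to 243 ± 3.34, CETN2 from 664 ± 20.8 to 861 ± 76.4 and the damage sensor XPC from 414 ± 15.1 to 514 ± 27.3. ERCC6, GTF2H1 and DDB1 rose with 0.32, 0.22 and 0.13. Without letter A at 30 h, letter A at 72 h or letter B at 72 h, 3 rises were left.

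Of 7 mismatch repair genes, 3 fell and 0 rose by limma (median 0.09), against 25.0% and 23.6% of all tested genes. Of 16 base excision repair genes, which replace single damaged bases, 4 fell and 2 rose (median -0.15), where 25.0% of all tested genes fell and 23.6% rose. NEIL3, a glycosylase, fell from 144 ± 23.2 to 63.2 ± 13.0 (log2 fold change -1.19), PARP1, the sensor of single-strand breaks, from 2006 ± 117 to 1346 ± 194, NTHL1 with -0.44 and LIG3 with -0.24, while the glycosylase genes TDG and MPG rose with 0.29 and 0.33. Without letter A or B at 30 h or letter C at 72 h, 2 falls were left, and without letter A of either time 1 rise. All genes here other than NEIL3 were named after their values were seen.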
